A study of Homo sapiens with 2 samples.

Results

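The genes described here are 10 inhibitors, ubiquitin ligases and corepressors that hold back TGF-β, activin and BMP signals: BAMBI, SMAD6, SMAD7, PMEPA1, LDLRAD4, SMURF1, SMURF2, SKI, SKIL and TGIF1. They were chosen by function, with earlier results of these data known. Each probe set that the platform annotation gives to one of them alone was read. These were 33 of the 54675 on the array, for 10 of 19775 genes represented in this way. No probe set of a member named several genes. RNA came from HUES9, an established line of human embryonic stem cells, taken at passage 32 and grown as floating embryoid bodies for 10 days. They were then plated on fibronectin in defined medium, and the monolayer that formed was passaged. SB-OG received SB-431542, a kinase inhibitor of the receptors ALK4, ALK5 and ALK7, at 10 µM in the embryoid body stage and 1 µM in the outgrowth stage, and control-OG received the vehicle DMSO at 0.01%. At passage 5 of the outgrowth, 3 samples per condition were mixed and read on 1 Affymetrix array, so each group is 1 mixture of 1 cell line, no value has a replicate error and no test was possible. The study's title places the comparison in the differentiation of embryonic stem cells to mesodermal cells under TGF-β inhibition.

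TGF-β and activin bind paired serine/threonine kinase receptors, which phosphorylate SMAD2 and SMAD3, while BMPs act through SMAD1, SMAD5 and SMAD9, and both branches share SMAD4. Several genes that the pathway switches on encode its own inhibitors, which closes a negative feedback loop. BAMBI is a receptor-like decoy without a kinase domain, SMAD6 and SMAD7 block receptors and recruit SMURF ubiquitin ligases, PMEPA1 and LDLRAD4 sequester SMADs at membranes, and SKI, SKIL and TGIF1 repress SMAD complexes on DNA. SB-431542 blocks the TGF-β, activin and nodal receptors and spares the BMP type I receptors.

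Promoter sequences are shown for the 4 members lower by 2-fold or more in SB-OG, and for TGIF1, which differed little, because SMAD complexes act through short DNA elements near such genes. The windows are the 250 bases before the most upstream RefSeq start site in build GRCh38.p14: chr10:28677271-28677520 (plus strand) for BAMBI, chr15:66701986-66702235 (plus) for SMAD6, chr18:48950966-48951215 (minus) for SMAD7, chr3:170357465-170357714 (plus) for SKIL and chr18:3411759-3412008 (plus) for TGIF1. Capitals mark the palindromic SMAD-binding element GTCTAGAC, the CAGA-type core CAGAC or its complement GTCTG, and the GC-rich element GGCGCC, searched on both strands, and no match overlapped another.
BAMBI: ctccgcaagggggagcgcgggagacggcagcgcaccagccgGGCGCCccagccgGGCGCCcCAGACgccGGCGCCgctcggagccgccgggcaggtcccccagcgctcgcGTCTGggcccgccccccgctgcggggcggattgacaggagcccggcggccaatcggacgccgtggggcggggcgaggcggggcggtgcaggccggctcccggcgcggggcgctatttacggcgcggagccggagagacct
SMAD6: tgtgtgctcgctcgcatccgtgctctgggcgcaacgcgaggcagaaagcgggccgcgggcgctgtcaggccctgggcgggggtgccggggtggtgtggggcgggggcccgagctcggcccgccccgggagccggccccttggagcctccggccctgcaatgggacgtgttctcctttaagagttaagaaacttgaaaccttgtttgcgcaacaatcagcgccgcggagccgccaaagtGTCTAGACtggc
SMAD7: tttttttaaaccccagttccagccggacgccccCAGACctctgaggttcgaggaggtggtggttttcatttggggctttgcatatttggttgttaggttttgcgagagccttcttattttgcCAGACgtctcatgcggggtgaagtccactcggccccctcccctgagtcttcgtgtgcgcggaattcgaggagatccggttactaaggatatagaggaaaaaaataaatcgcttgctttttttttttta
SKIL: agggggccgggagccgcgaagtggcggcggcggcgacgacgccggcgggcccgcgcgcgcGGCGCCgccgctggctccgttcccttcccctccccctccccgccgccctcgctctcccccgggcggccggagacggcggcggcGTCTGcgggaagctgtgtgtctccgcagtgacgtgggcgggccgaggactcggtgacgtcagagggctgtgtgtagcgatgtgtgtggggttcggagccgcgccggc
TGIF1: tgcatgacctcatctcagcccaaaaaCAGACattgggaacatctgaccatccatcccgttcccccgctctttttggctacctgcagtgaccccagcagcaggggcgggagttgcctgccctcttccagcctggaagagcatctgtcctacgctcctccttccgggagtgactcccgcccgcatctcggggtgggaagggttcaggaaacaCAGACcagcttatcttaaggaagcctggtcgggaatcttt

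In these windows SMAD6 held 1 GTCTAGAC, starting at position -12 from its start site, and neither of the other elements. BAMBI held 3 GGCGCC and 2 CAGAC-type matches, SMAD7 held 2 CAGAC at positions -217 and -128, and SKIL held 1 of each of these shorter elements. The palindrome was found in 64 of 35116 RefSeq windows of the same length (0.182%), against 38.0% for CAGAC and 16.4% for GGCGCC. Over all listed start sites, 9 members had 28 windows, of which 1 held the palindrome, 16 held CAGAC and 3 held GGCGCC. The SMURF2 window held none of them. TGIF1, with a difference near 0, held 2 CAGAC matches, so the shorter core was present both in members lower by 2-fold and in one with almost equal signals. A match is a letter pattern, and binding was not measured.

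The arrays had median intensities of 22.6 (control-OG) and 21.8 (SB-OG). A background level was set at 32.1 for control-OG and 27.2 for SB-OG, the 95th percentile of probe sets for olfactory receptors and similar genes, and intensities under it were raised to it before differences were taken. Above it lay 11321 genes on control-OG and 11675 on SB-OG. The ratio of 3′ to 5′ signal was 0.995 and 0.958 for GAPDH and 1.65 and 1.55 for ACTB. Probe sets of one gene gave log2 differences with an SD of 0.47 over 4953 genes. This is a spread between readings of a gene within 1 pair of arrays, not an error between cultures. Precision is limited by having so few arrays.

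The inhibitors differed among themselves. In SB-OG the signals of BAMBI, SMAD7, SMAD6 and SKIL were lower by 2-fold or more, and PMEPA1 differed by slightly less. The ubiquitin ligases SMURF1 and SMURF2 and the corepressors SKI and TGIF1 were within 2-fold and on the positive side by their brightest probe sets. By the brightest probe set of each gene, 4 of 10 members were at least 2-fold lower and 0 were at least 2-fold higher, where, of the 12557 genes that exceeded background on one array or both, 13.0% were lower and 12.4% higher. The median log2 difference of the members, SB-OG minus control-OG, was -0.58, beside -0.02 over all those genes. That median lies midway between PMEPA1 and LDLRAD4, and the LDLRAD4 value is a bound set by the background level. Where LDLRAD4 had no value, the median was -0.95 with a lowess correction and -0.88 with the background at the 99th percentile. When SB-OG was instead scaled on the hybridisation control probe sets, SB-OG signals were raised by 0.48 on the log2 scale, the share of higher genes among those 2-fold apart went from 48.8% to 77.1%, and 3 members were lower and 2 higher. Just past the 2-fold limit was SKIL, at a log2 difference of -1.25, and just short of it were PMEPA1, at -0.88, and on the higher side SKI, at 0.78.

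**Figure D1:**
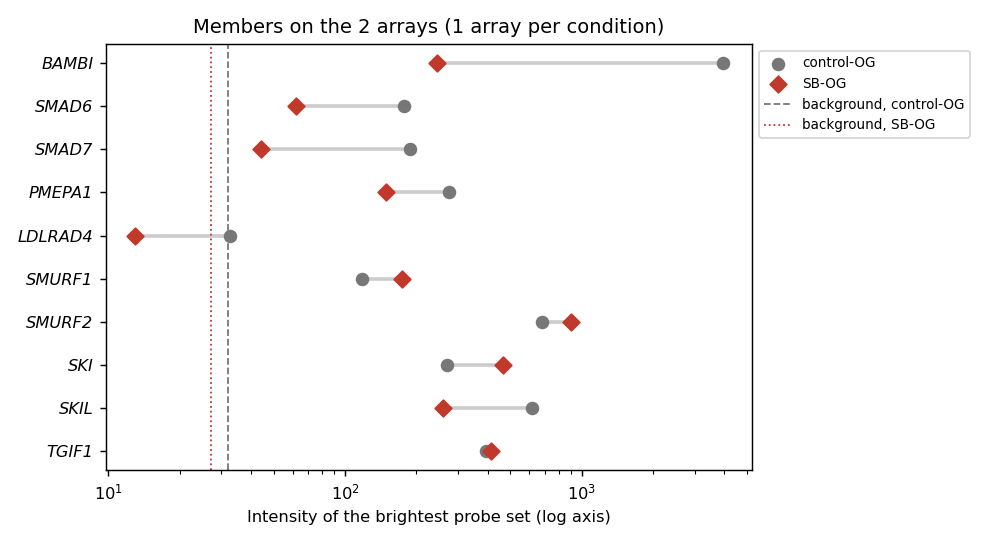
Intensity of the brightest probe set of each member (log axis) on the control-OG array (grey circles) and the SB-OG array (red diamonds), 1 array each, with each array's background level as a vertical line. BAMBI spans the widest gap, from 3942 to 246, and LDLRAD4 lies close to or under the background lines.

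BAMBI, the decoy receptor, read 3942 on control-OG against 246 on SB-OG (probe set 203304_at). It was 16.1-fold lower in SB-OG, a log2 difference of -4.00, and 0.725% of genes above background had a lower difference. BAMBI stayed 9.02 times above the background level on SB-OG. Only 1 probe set represents the gene, so the array holds no other reading of it. Scaling on the hybridisation controls gave -3.53 and the other settings -4.00 to -3.92. The choice of background level or probe set cannot change a gene with 1 bright probe set.

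SMAD7, an inhibitory SMAD, read 187 on control-OG and 44.2 on SB-OG (probe set 204790_at). That is 4.24-fold lower, a log2 difference of -2.08, and 3.91% of genes had a lower difference. The SB-OG signal was only 1.62 times its background level. With the background set at the 99th percentile, the difference was -1.29, and it is then a lower bound in size. SMAD6, its paralogue, which acts mainly on BMP receptors, read 177 on control-OG and 62.3 on SB-OG (probe set 207069_s_at). That is 2.84-fold lower, a log2 difference of -1.50. With the background at the 99th percentile SMAD6 was at -1.20, also a lower bound in size. The other 3 SMAD6 probe sets were under background on both arrays. SMAD6 therefore rests on 1 probe set, and its value could not be formed from the mean of all its probe sets or from those specific by name. The log2 differences of SMAD6 and SMAD7 were 0.58 apart. The SD among probe sets of a gene measures no error between genes, so this gap was not tested.

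PMEPA1, a membrane protein that captures receptor-activated SMADs and marks active TGF-β signalling in many cell types, read 275 on control-OG and 149 on SB-OG by its brightest probe set, 1.84-fold lower. All 3 of its probe sets were above background on both arrays, with log2 differences of -0.92, -0.88 and -0.58. PMEPA1 was thus lower by every probe set and 2-fold lower by none. The probe set at -0.92, 217875_s_at, was at -1.04 with quantile normalization. With the background at the 99th percentile it was under background on SB-OG. Its value there, 0.07, sets that background level against the control-OG reading and gives no direction. The PMEPA1 paralogue LDLRAD4 was barely measurable. It read 32.8 on control-OG, 1.02 times the background level, and 13.0 on SB-OG, under background. The bound was at least 1.21-fold lower, and its log2 value of -0.27 became 0.21 when SB-OG was scaled on the hybridisation controls. The 0.21 sets the scaled SB-OG background level against the control-OG reading, so it gives no direction. The other 3 LDLRAD4 probe sets were under background on both arrays, so no more can be said of this gene.

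SMURF2, a HECT-type ubiquitin ligase that SMAD7 brings to the receptors, read 681 on control-OG and 903 on SB-OG by its brightest probe set, 1.33-fold higher. Its other 3 probe sets, all above background on both arrays, differed among themselves. Probe set 227489_at went from 233 to 468 (2.005-fold higher), 232020_at from 59.6 to 131 (2.20-fold higher) and 230820_at from 176 to 145 (1.21-fold lower). Different readings of SMURF2 therefore do not give one direction or size. SMURF1, its close relative, read 118 on control-OG and 175 on SB-OG, 1.48-fold higher, and its next probe set read 50.1 and 52.1. The SMURF1 probe set 232665_x_at passed background on SB-OG alone, at 29.9 beside 18.0, and the remaining 2 were under background. No probe set of either ligase was lower by 2-fold.

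SKIL, which encodes the corepressor SnoN, a SKI relative whose gene TGF-β is known to induce, read 617 on control-OG and 260 on SB-OG, 2.37-fold lower with a log2 difference of -1.25. A second probe set, 217591_at, read 354 and 42.9, 8.27-fold lower with a log2 difference of -3.05. With the background at the 99th percentile it was at -2.21, a bound, since its SB-OG signal was then under background. The 2 readings agree in direction and differ in log2 size by more than the SD of 0.47. The other 3 SKIL probe sets were under background, and the mean of all 5, those 3 included, gave -0.71, a bound, since that mean was under background on SB-OG. With the hybridisation control scaling SKIL was at -0.77, lower by less than 2-fold. SKI, the founding corepressor of this family, read 271 on control-OG and 465 on SB-OG by its brightest probe set, 1.72-fold higher. Its second probe set read 64.1 and 60.7, a log2 difference of -0.08, and the last was under background. SKI was past 2-fold with the hybridisation control scaling, at 1.25, which also took SMURF1 to 1.04. The mean of all its probe sets gave 1.20, a value that rests on the probe set under background on both arrays, which alone gave 2.89. SKI thus had no settled direction, but the log2 differences of SKI and SKIL were 2.02 apart by their brightest probe sets. TGIF1, a homeodomain corepressor of SMAD2 and SMAD3, read 395 on control-OG against 412 on SB-OG, with a log2 difference of 0.06. A dimmer TGIF1 probe set, 244858_at, passed background on SB-OG alone, at 36.5 beside 28.1.

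**Figure D2:**
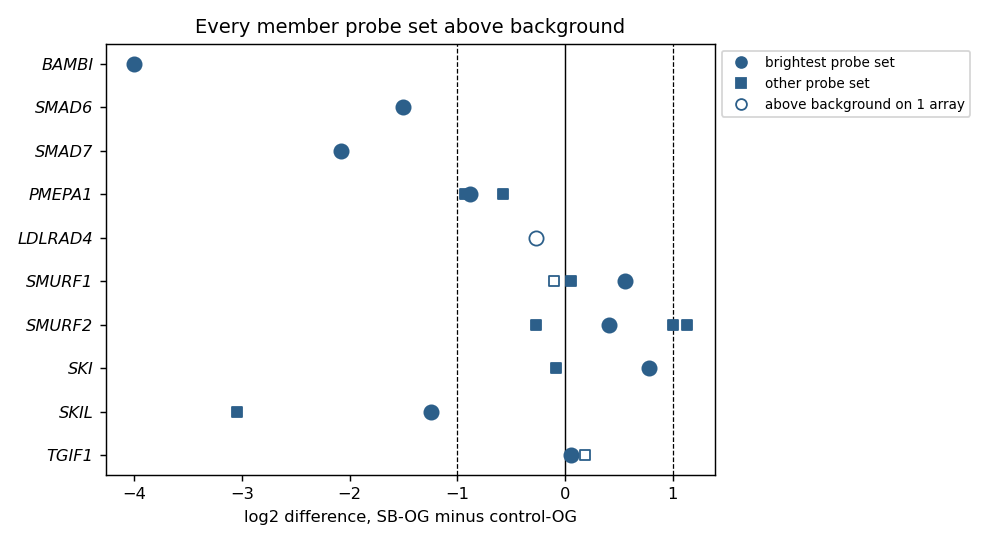
Log2 difference (SB-OG minus control-OG) of each member probe set above background, with circles for the brightest probe set of a gene, squares for the others, open symbols for probe sets above background on 1 array, and dashed lines at 2-fold. Both SKIL probe sets lie left of -1, whereas the 4 SMURF2 probe sets spread from -0.27 to 1.14. The open SMURF1 symbol, at -0.10, sets its SB-OG reading against the control-OG background level and gives no direction.

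Of the 33 member probe sets, 20 were above background on at least 1 array, 17 of them on both. In SB-OG, 5 of the 20 were lower by 2-fold or more and 2 were higher by as much, beside 12.0% and 12.7% of all 23511 probe sets named for 1 gene and above background. The 5 belong to BAMBI, SMAD7, SMAD6 and SKIL, and the 2 to SMURF2. Probe sets of one gene are readings of the same gene and are not separate members. Over the 5 members with several probe sets above background on both arrays, their SD was 0.66, wider than the 0.47 over all such genes.

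Other genes of the pathway give the setting for the members. Among TGF-β and activin targets, 22 exceeded background, and 14 of them (63.6%) were lower by 2-fold or more in SB-OG while 0 were higher. Over all genes above background, 13.0% were lower and 12.4% higher. The median log2 difference of these targets was -1.61, or -0.85 with only probe sets specific by name. By brightest probe sets, LTBP2, which belongs to the latent TGF-β binding proteins, was 30.1-fold lower, LMCD1, a LIM-domain regulator, 17.8-fold, TGFBI, a matrix protein, 15.1-fold, and LTBP1 7.89-fold. The sizes varied with the probe set. LMCD1 was at a log2 difference of -4.15 by its brightest and at -5.08 and -1.07 by its others. The other probe sets of LTBP2 and LTBP1 gave -3.68 and -2.66. For TPM1, TGFB1, MMP2 and COL1A1, named after their values were seen, the 2-fold call itself depended on the probe set. Their brightest were at -1.06, -2.84, -2.31 and -1.43, and their highest others at 3.77, -0.10, -0.49 and -0.59. Several of the TGF-β and activin targets were known from earlier results of these arrays and do not count as separate support. BMP targets did not run one way: 5 of 13 (38.5%) were higher by 2-fold or more and 3 (23.1%) were lower. SMAD9 is counted both here and among the receptors and transducers. The median of the BMP targets was -0.06, which became 1.80 with only probe sets specific by name. RGMB, a BMP coreceptor, was 6.77-fold higher, ID4 6.02-fold and the Notch and BMP effector HEY1 5.75-fold, whereas the BMP antagonist GREM1 was 6.52-fold lower. ID4 was at 2.59 on the log2 scale by its brightest probe set and at 1.11 and 1.44 by the others. Other probe sets gave log2 differences of 1.60 to 2.84 for RGMB, 2.64 for HEY1 and -2.84 for GREM1. SMAD6 and BAMBI, which BMPs can also induce, were on the lower side of this split.

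The receptors and SMAD transducers, on which the inhibitors act, were mostly within 2-fold, with a median of -0.01. Of 16, 4 (25%) were higher by 2-fold or more and 1 (6.25%) was lower, beside 12.4% and 13.0% of all genes. SMAD9, a BMP-branch SMAD, was 3.95-fold higher, the activin receptor ACVR2B 3.29-fold, SMAD1 2.03-fold and ACVRL1 at least 2.07-fold. Other ACVR2B probe sets gave log2 differences of -0.16 to 0.13, another for ACVRL1 gave -0.14, and those for SMAD1 gave 0.06 to 1.24. The 1 lower was the coreceptor TGFBR3 at 2.01-fold, named after its value was seen, and its other probe set gave -0.51. Among 23 other SMAD ligases, deubiquitinases and corepressor partners, 3 (13.0%) were at least 2-fold higher and 0 lower, with a median of -0.06. That share of higher genes was near the 12.4% over all genes. The 3 were the SMAD-interacting repressor ZEB2, 7.74-fold higher, the ubiquitin ligase NEDD4L, 5.43-fold, and the deubiquitinase UCHL5, 2.23-fold. Other probe sets gave log2 differences of 0.40 to 3.24 for ZEB2, so its 2-fold call depended on the probe set, of 2.67 to 3.22 for NEDD4L and of 1.29 for UCHL5.

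**Figure D3:**
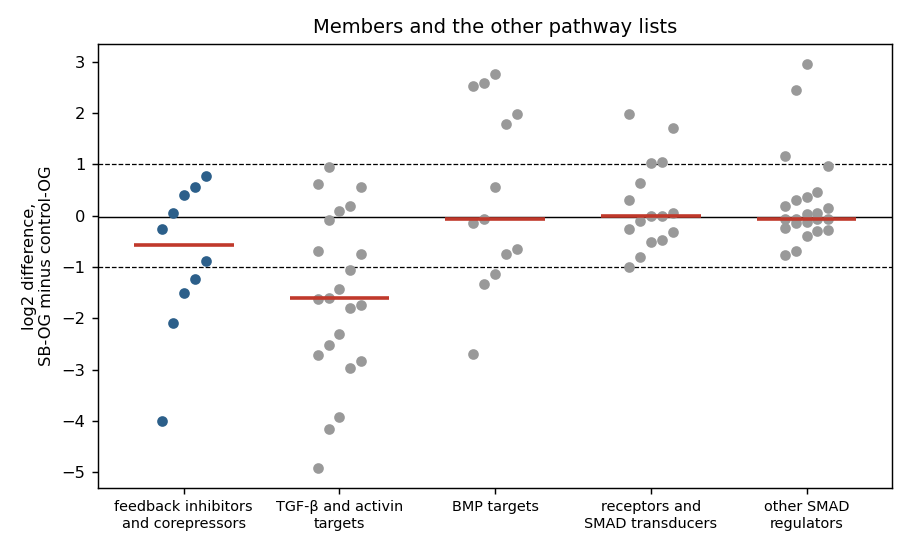
Log2 difference (SB-OG minus control-OG) of each gene above background in the members (blue) and in 4 other pathway lists (grey), with the list median as a red bar, the median of all genes as a solid line and dashed lines at 2-fold. The members spread from -4.00 to 0.78, and the targets of TGF-β and activin have the lowest median, -1.61.

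The mixtures also differed in cell type markers. Of 13 skeletal muscle markers, 6 were above background on control-OG and 12 on SB-OG, and their summed intensity was 467 and 61764. MYF5 was under background on both. All 10 fibroblast and mesenchymal markers were above background on both arrays, with sums of 121675 and 58035. The signal of 9 fell, for 7 of them past 2-fold, whereas PDGFRB rose from 317 to 656, a 2.07-fold change. Epithelial markers summed to 16568 and 516, with 3 of 10 above background on each array and EPCAM on neither. The keratins KRT8, KRT18 and KRT19 made up that fall in the sum, whereas CDH1 went the other way, from 26.9 to 82.8, at least 2.58-fold higher. Endothelial markers summed to 2048 and 143, with CDH5 and VWF under background on both. KDR (933 to 18.7), TEK (404 to 12.0) and FLT1 (681 to 53.8) made up that fall. PECAM1 went the other way, from 25.5 to 37.9, above background on SB-OG alone. Neural markers summed to 7298 and 13103, with 5 of 8 above background on each array and PAX6 on neither. They ran both ways: STMN2 went from 2606 to 24.3, under background on SB-OG, while DCX went from 32.5 to 1392 and NEFM from 58.4 to 2233. TUBB3, at 4141 and 6918, was the largest single part of both sums. Of 6 pluripotent cell markers, 5 had a probe set named for them alone, and POU5F1 was not read. The 5 were under background except SOX2 on SB-OG, with NANOG at 4.15 and 5.06. The part of these markers in the member differences was not tested, and in a bulk mixture fewer cells of a type and less RNA per cell cannot be told apart.

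**Figure D4:**
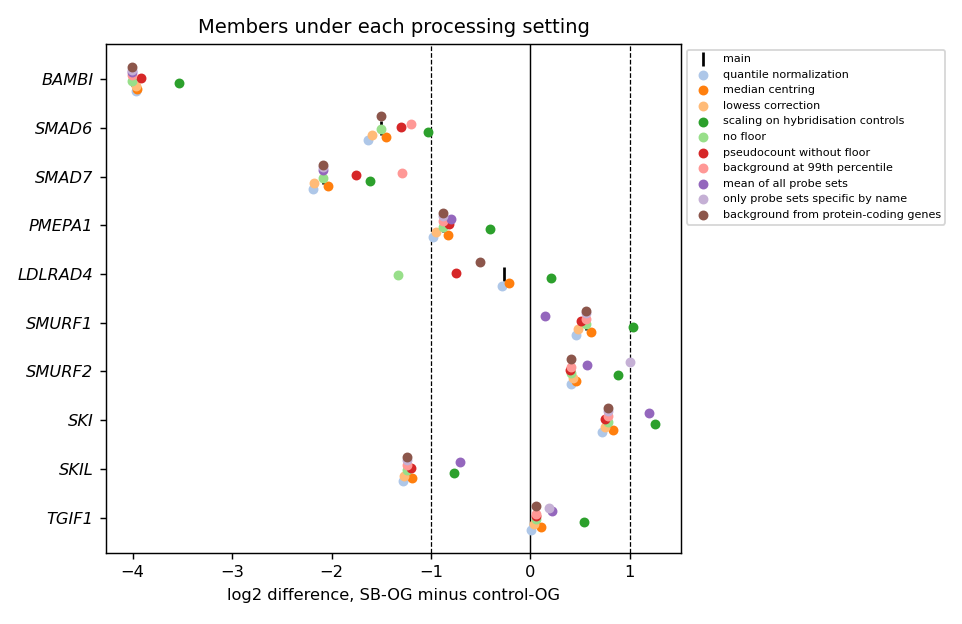
Log2 difference (SB-OG minus control-OG) of each member under the main processing (black bars) and each alternative setting (coloured points), with dashed lines at 2-fold. BAMBI, SMAD7 and SMAD6 lie left of -1 under every setting that gave them a value, and the alternatives for SKI and SKIL do not meet.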

How the data were processed

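RNA of control-OG and SB-OG was read on 1 array per condition. RNA was column-extracted and labelled with biotin, per the labels' protocols. The authors deposited one linear intensity for each probe set; the sources used here name no summarising software. Their mean without the lowest and highest 2% was 150.0 on both arrays, so a change in total RNA is not visible.

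Names came from the platform annotation of 2016, updated by gene ID through a table of assembly GRCh38.p14, which held 19735 of 19775 genes. Of the probe sets, 41091 had 1 gene, 1801 several and 11721 no name there, and 62 were array controls. A gene took its brightest probe set by mean log2 intensity. The background level came from 217 probe sets of 176 genes, namely those for late cornified envelope proteins, defensins, keratin-associated proteins, and taste and olfactory receptors. Folds of genes above it on 1 array are bounds, and where both arrays were under it no fold is given. Genes were counted at 2-fold. Members and lists were chosen with earlier results of these data known. The rule named every member and in each other pathway list the up to 4 genes furthest apart, from 2-fold upward. The code for the differences and gene selection was run on simulated data. That run does not measure the error of the 2-fold calls on these arrays. Promoters are RefSeq's, for 9 members. Python 3.11.15, numpy 2.4.6, pandas 2.3.3 and statsmodels 0.14.6 were used.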

Additional observations from a re-analysis of the deposited data

How the results depend on the processing

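No paired analysis was possible because each group has 1 array. A value counted as moved when it changed by more than 0.47, the SD among the probe sets of a gene, and a count when it changed by over 1.5 times. None of the called members reversed in any setting. Scaling on the 18 hybridisation controls raised SB-OG by 0.48 on the log2 scale, and the median of all genes from -0.02 to 0.45, so it moved every member by that amount and none relative to the others. It gave -3.53 for BAMBI, -1.03 for SMAD6, -1.61 for SMAD7, -0.41 for PMEPA1 and 0.21 for LDLRAD4. The LDLRAD4 value comes from the SB-OG background level and gives no direction. The same scaling gave 1.04 for SMURF1, 0.88 for SMURF2, 1.25 for SKI, -0.77 for SKIL and 0.53 for TGIF1. It left 2 members at least 2-fold higher and 3 lower, and a member median of -0.10, which rests in part on that LDLRAD4 value. With it the medians were 0.47 for receptors and transducers, 0.42 for other regulators, -1.14 for TGF-β targets and 0.41 for BMP targets. Of all genes 2-fold apart, 77.1% were then higher in SB-OG, beside 48.8%. Without a floor, LDLRAD4 was at -1.33 and the member median at -1.06, and with a pseudocount of 16, LDLRAD4 was at -0.75. A background at the 99th percentile gave -1.29 for SMAD7 and -1.20 for SMAD6, both of them bounds. The mean of all probe sets gave -0.71 for SKIL (a bound at the background level), with 2 members 2-fold lower and 1 (SKI, 1.20, through a probe set under background) higher, and SMAD6 and LDLRAD4 had no value. Using only probe sets specific by name gave 1.00 for SMURF2, the 1 member then higher, and medians of -0.85 for TGF-β targets and 1.80 for BMP targets. It leaves out some genes and takes other probe sets for others, and their shares in these changes were not separated. At 3-fold, 2 members were lower. Quantile normalization, median centring, a lowess correction and a background from protein-coding genes alone, the last chosen after seeing the data, gave 4 lower and 0 higher.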
